A study of Mus musculus with 20 samples.

Results

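Livers of 2 lean inbred mouse strains were compared by array, 4 C3H mice (C3HeB/FeJ) from a strain described as susceptible to diabetes, against 4 129Ola mice (129P2/OlaHsd) from a resistant one. All were males on a high fat diet with 45% fat, taken at week 6, which the labels can be read to mean weeks of age or of feeding. The labels name no engineered allele and no drug. These 8 mice are part of a series of 20 livers from 5 strains, in which DBA (DBA/2J) and B6 (C57BL/6) form the other lean pair of a susceptible and a resistant strain and NZO is the obese strain. The 8 arrays were chosen by their strain label, with no use of measured values. Each array holds the RNA of 1 mouse labelled with Cy3, so a difference between the strains stands on 4 mice against 4, and each strain was sampled once, on 1 diet. The comparison asks which liver transcripts go with susceptibility in the absence of obesity, and every other genetic difference between the strains enters it too.

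A level below is the log2 signal of a gene's brightest probe minus the 75th percentile of its array, so 0 is that percentile itself. Per-mouse values are in the order of animal numbers 1, 2, 3 and 5 for C3H and 4, 5, 7 and 9 for 129Ola, a difference is C3H minus 129Ola with its standard error (SE), and its adjusted p comes from limma. Of the probes on an array, 43.3 to 46.9% were well above background in C3H and 40.0 to 43.4% in 129Ola. The 75th percentile lay at 80.8 to 87.1 intensity units in C3H and at 56.4 to 75.8 in 129Ola. All 4 C3H arrays lay on 1 slide scanned on 1 day. The 129Ola arrays lay on 2 other slides, mice 4, 5 and 9 on one and mouse 7 on the other, both scanned on a different day. Scan day and strain cannot be told apart. A gene is called stable below when it passed the threshold with the same sign in 6 settings, namely the main scaling, 4 other scalings or background corrections (among them the authors' value table, where it holds the probe) and the fit with the slide as a random block. Liver identity was clear from the hepatocyte markers, with albumin (Alb) at 10.87 to 11.04 in C3H and 10.52 to 10.98 in 129Ola.

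The liver makes cholesterol from acetyl-CoA through the mevalonate pathway, and the transcription factor SREBP2 raises the genes of this pathway when membranes hold little sterol. SREBP1c and ChREBP drive fatty acid synthesis after feeding, under insulin and sugar. PPARA, a receptor for fatty acids, drives fatty acid oxidation and the Cyp4a hydroxylases in fasting and on fat. These programmes run in hepatocytes, while MHC class II molecules, which present peptides to helper T cells, are made in the liver mainly by Kupffer cells, dendritic cells and B cells.

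Promoters of sterol genes are known for binding sites of NF-Y, a factor that reads the letters CCAAT, beside those of SREBP, and promoters of MHC class II genes hold an inverted CCAAT in their Y box. The 250 bases before the first listed RefSeq transcription start (GRCm38.p6) are shown for 3 sterol genes and 1 MHC class II gene. They were chosen since members of both groups moved together in the comparison below. Capitals mark CCAAT on either strand (written ATTGG where it lies on the other strand), and in Hmgcs1 also 1 copy of TCACNCCAC.
Hmgcs1 (chr13:119690101-119690350, plus strand): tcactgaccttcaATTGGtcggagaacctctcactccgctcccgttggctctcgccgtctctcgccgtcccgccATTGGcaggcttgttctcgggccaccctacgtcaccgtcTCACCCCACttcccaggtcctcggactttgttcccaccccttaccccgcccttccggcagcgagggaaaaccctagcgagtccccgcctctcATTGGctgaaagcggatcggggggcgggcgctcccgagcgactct
Idi1 (chr13:8885356-8885605, plus strand): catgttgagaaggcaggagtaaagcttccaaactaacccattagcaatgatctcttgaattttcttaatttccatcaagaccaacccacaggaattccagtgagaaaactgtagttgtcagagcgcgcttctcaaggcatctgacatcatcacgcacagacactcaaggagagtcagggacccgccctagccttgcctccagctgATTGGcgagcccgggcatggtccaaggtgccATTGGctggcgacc
Cyp51 (chr5:4104698-4104947, minus strand): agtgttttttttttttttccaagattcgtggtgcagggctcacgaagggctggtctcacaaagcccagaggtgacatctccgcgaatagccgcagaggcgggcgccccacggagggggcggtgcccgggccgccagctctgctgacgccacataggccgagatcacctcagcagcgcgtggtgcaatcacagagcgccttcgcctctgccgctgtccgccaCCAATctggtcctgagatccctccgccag
H2-Eb1 (chr17:34305617-34305866, plus strand): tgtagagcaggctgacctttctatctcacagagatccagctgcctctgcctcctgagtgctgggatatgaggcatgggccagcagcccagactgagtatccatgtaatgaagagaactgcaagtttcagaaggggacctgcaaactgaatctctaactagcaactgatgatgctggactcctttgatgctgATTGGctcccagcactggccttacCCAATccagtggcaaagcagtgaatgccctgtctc
Hmgcs1 holds 3 copies of CCAAT in this window, Idi1 and H2-Eb1 hold 2 each and Cyp51 holds 1. Over all 27025 genes of the promoter table, 34.5% hold at least 1 copy. Among members with a window, 15 of 17 genes of cholesterol synthesis and uptake, 8 of 10 of MHC class II presentation, 11 of 14 PPARA targets, 9 of 16 of fatty acid synthesis and 9 of 24 of fatty acid oxidation hold one. TCACNCCAC, searched on both strands, is in 1.04% of all windows and in 1 of the 17 sterol genes. The 2 sterol genes without CCAAT in the window are Acat2 and Dhcr7. Dhcr7 has 3 listed starts, of which only the first listed was searched. These matches describe the letters of the reference strain and are not measured sites.

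C3H and 129Ola differed in 7489 of 17724 genes tested (42.3%), 2836 higher in C3H (16.0%) and 4653 lower (26.3%). At a difference of 2-fold or more, 1540 genes were higher (8.69%) and 661 lower (3.73%). The balance of directions moved with the scaling, since scaling on the 19948 probes detected well above background by all 20 arrays gave 4126 higher and 2549 lower. The median of all genes was -0.10 with the main scaling and 0.06 with that one, and list medians below are to be read against -0.10. Quantile normalization gave 2999 higher and 3195 lower, normexp background correction 1752 and 2626, and the slide as a random block 1164 and 1700. Without 129Ola mice 4 and 5 there were 1855 and 2999, and without mice 7 and 9 there were 2504 and 3981. List counts under another setting are to be read against these counts of the 17724 genes. Stable genes numbered 772 higher (4.36%) and 1525 lower (8.6%), of which 507 and 527 differed 2-fold or more. Strains that did not overlap were common, in 7840 genes (44.2%), 2959 higher in C3H (16.7%) and 4881 lower (27.5%). Each mention of no overlap below is to be read against these shares. Of the 1540 genes that were 2-fold higher, 1006 were not above background on all 8 arrays, and of the 661 that were 2-fold lower, 163 were not. Among the 15395 genes measured on all 8 arrays, 534 were 2-fold higher and 498 were 2-fold lower. The share of genes that were stable and 2-fold different ran from 3.60% on chromosome 10 to 8.04% on chromosome 17, the chromosome of the MHC.

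Cholesterol synthesis was higher in C3H along nearly its whole length. Of 25 genes of cholesterol synthesis and uptake, all tested, 23 were higher in C3H and 0 lower, against 16.0% and 26.3% of all genes, and 20 of them were higher by 2-fold or more. The median difference of the list was 1.90, and 20 of the 23 were stable. Through all settings run, 19 to 24 members were higher and 0 lower. Without 129Ola mice 4 and 5 the count was 23 higher, and without mice 7 and 9 it was 22.

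The mevalonate steps come first. Hmgcs1, which makes HMG-CoA, had levels of 6.40, 6.92, 6.11 and 6.65 in the C3H livers, against 3.82, 3.63, 3.84 and 4.0 in the 129Ola livers. The strains did not overlap, and the difference was 2.70 ± 0.23 (adjusted p = 7.7e-08), or 6.49-fold. Mvd, which makes isopentenyl diphosphate, read 2.95, 3.68, 2.43 and 3.93 in C3H, against -0.63, -0.32, 0.16 and -0.21 in 129Ola (3.49 ± 0.33, adjusted p = 3.4e-07). Idi1, the isomerase of that unit, stood at 5.96, 6.19, 5.55 and 6.22 in C3H and at 3.68, 3.02, 3.28 and 3.44 in 129Ola (2.62 ± 0.18, adjusted p = 6.4e-09). For both, the lowest C3H mouse was more than 1 log2 unit above the highest 129Ola mouse. Fdps, which joins the units into farnesyl diphosphate, measured 7.46, 7.70, 6.94 and 7.52 in C3H, against 4.09, 3.66, 4.68 and 5.13 in 129Ola, a difference of 3.02. The kinases Pmvk and Mvk were also higher, by 1.90 and 1.11, as was squalene synthase (Fdft1), by 1.31.

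Squalene epoxidase (Sqle), a control point of the pathway, showed the largest difference of the list. Its levels were 5.67, 5.97, 5.26 and 5.97 in C3H livers, against 0.82, 0.25, 1.09 and 2.04 in 129Ola livers, a 25.4-fold difference (4.67 ± 0.34 on the log2 scale, adjusted p = 1.2e-08). No 129Ola mouse came within 3 log2 units of a C3H mouse. Cyp51, the lanosterol demethylase, read 1.60, 2.00, 1.29 and 1.88 in C3H and -2.08, -2.64, -1.23 and -1.56 in 129Ola (3.57 ± 0.29, adjusted p = 4.5e-08), where 3 of the 4 129Ola arrays had it well above background. Msmo1, which removes the methyl groups at carbon 4, stood at 6.94, 7.29, 6.79 and 7.03 in C3H, against 4.46, 4.08, 4.06 and 4.50 in 129Ola (2.74 ± 0.19, adjusted p = 6.2e-09). Each of these enzymes separated the strains without overlap. Nsdhl, Lss and Dhcr7 were higher by 2.81, 1.97 and 2.20, and Hsd17b7, Tm7sf2 and Sc5d by 1.45, 1.32 and 1.04. The isomerase Ebp (difference 0.15, adjusted p = 0.073) and the thiolase Acat2 (-0.06, adjusted p = 0.69) did not pass the test.

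Regulators and carriers of the list were also higher in C3H. Srebf2, which encodes SREBP2, read 0.59, 0.73, 0.45 and 0.39 in C3H, against -0.67, -0.94, -0.16 and -0.26 in 129Ola, a difference of 1.05 ± 0.14 (adjusted p = 2.1e-05) without overlap. Insig1, which holds SREBP in the endoplasmic reticulum, differed by 1.33 ± 0.28 (adjusted p = 0.0013) and Stard4, a sterol carrier, by 0.64. With the slide as a random block both lost the threshold, at adjusted p = 0.068 and 0.074.

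**Figure D1:**
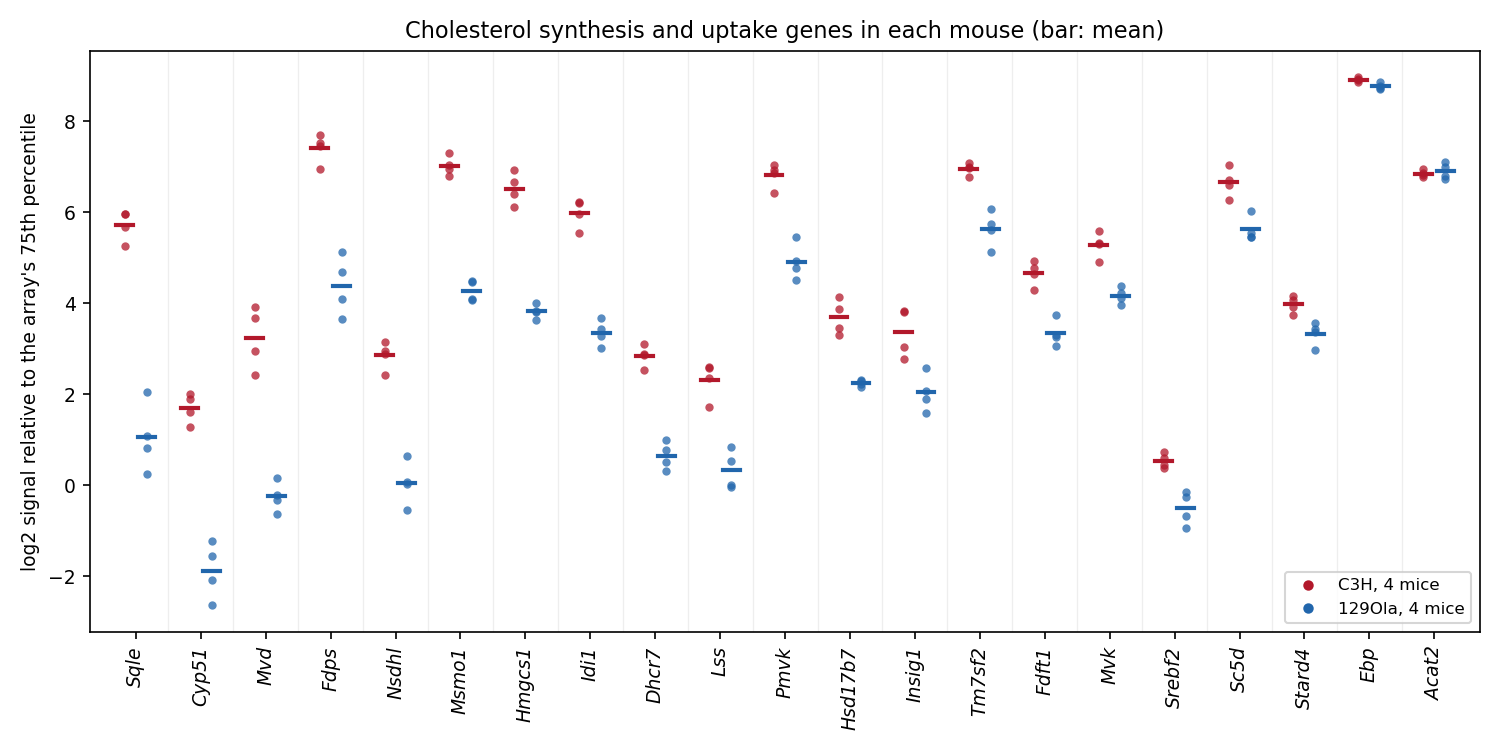
Level of the genes of cholesterol synthesis and uptake that are named in the text, in every mouse, as log2 signal relative to the array's 75th percentile (vertical axis), with genes ordered by their difference along the horizontal axis. Points are mice (C3H in red, left, and 129Ola in blue, right, 4 each) and bars are strain means. Sqle shows the widest gap (4.67) and the pairs close up toward Ebp and Acat2 at the right, which did not pass the test.

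Fatty acid synthesis was also higher in C3H, less uniformly than sterol synthesis. Of 20 genes on that list 19 were tested, with 16 higher in C3H and 1 lower, a median of 1.06, and 8 stable. Among all genes 16.0% were higher. Acacb, the acetyl-CoA carboxylase at the mitochondrial surface, led the list at 4.82, 4.75, 3.89 and 5.23 in C3H, against 1.30, 1.38, 2.15 and 1.93 in 129Ola (2.98 ± 0.31, adjusted p = 9.7e-07). The cytosolic carboxylase Acaca differed by 1.06, the citrate lyase Acly by 1.64, the acetyl-CoA synthetase Acss2 by 1.30, the elongase Elovl6 by 2.06 and malic enzyme Me1, a source of NADPH, by 1.93. All of these were stable and none overlapped between the strains, while 16.7% of all genes were higher in C3H without overlap.

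Fatty acid synthase (Fasn) stood at 3.08, 3.18, 1.90 and 3.69 in C3H and at -0.09, 1.01, 1.00 and 1.15 in 129Ola (2.20 ± 0.43, adjusted p = 0.00077). Scd1, the stearoyl-CoA desaturase, read 7.57, 7.26, 6.56 and 7.16 in C3H, against 3.42, 3.32, 4.18 and 6.38 in 129Ola (2.81 ± 0.52, adjusted p = 0.00047). 129Ola mouse 9 lay close to the C3H mice for Scd1 and the other 3 lay more than 2 log2 units below them. The related Scd2 was the one member that was lower, by 0.75 ± 0.21 (adjusted p = 0.0081), and lost the threshold with the slide as a random block (adjusted p = 0.16). Elovl3 and the desaturase Fads2 were higher by 1.91 and 0.91 and were lost under the same block (adjusted p = 0.10 and 0.072). Among the regulators, Srebf1 differed by 0.71 (adjusted p = 0.030, and 0.17 with that block) and Mlxipl, which encodes ChREBP, by -0.22 (adjusted p = 0.23). Thrsp, a target of both, overlapped between the strains, with 7.35, 7.68, 6.60 and 7.90 in C3H and 6.66, 8.01, 4.66 and 4.67 in 129Ola (adjusted p = 0.074). With the slide block 8 members of the list were higher, and 3 with the animal number as a block. Under the animal number block 700 of all 17724 genes were higher. Those numbers name unrelated mice, and the block leaves 5 residual degrees of freedom in place of 15. Lower counts under it thus do not tell which calls are fragile. Without 129Ola mice 4 and 5 the count was 11, and without mice 7 and 9 it was 14.

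Of 23 genes of triglyceride synthesis and lipid droplets tested, 1 was higher and 6 lower, the last a share near the 26.3% of all genes that were lower. Gpam, which starts glycerolipid synthesis, was higher in C3H by 1.20 and stable. Lpin2, a phosphatidate phosphatase, was lower, at 1.29, 1.84, 1.5 and 1.24 in C3H and 2.81, 2.50, 3.13 and 3.67 in 129Ola (-1.56 ± 0.23, adjusted p = 6.2e-05), and did not overlap. The acyltransferases Dgat1 and Dgat2 were lower by 0.33 and 0.40 and were not stable. Plin2, the coat protein of hepatic lipid droplets, did not pass the test (0.30, adjusted p = 0.32).

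Hsd17b13, a lipid droplet enzyme, gave opposite answers from its 2 probes and is given no direction. Its brightest probe was the lower one, and by it the gene is counted as lower in the list of lipid droplet genes and in that of periportal genes below. Both probes are 60 bases long and lie on the minus strand of chromosome 5 (mm9), and their first 30 bases are shown because the 2 match different transcript records.
Hsd17b13 probe at chr5:104392792-104392851: agtcgtatacagaacattcaatttgaagca
Hsd17b13 probe at chr5:104384701-104384760: tacccatgccttggtatatgagtatctgtg
At the first of these, levels were 0.92, 1.24, 1.05 and 0.84 in C3H, against 6.19, 6.04, 6.30 and 6.54 in 129Ola, a difference of -5.25. At the second they were 3.04, 3.28, 3.29 and 2.82 in C3H, against -2.90, -2.43, -1.94 and -1.96 in 129Ola, a difference of 5.42, with 3 of the 4 129Ola arrays well above background. Within each strain the 4 mice lay within 1 log2 unit at either probe. Whether the strains differ in transcript form, in the sequence under a probe or in amount cannot be told apart with these probes.

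PPARA targets were lower in C3H, and fatty acid oxidation was lower by smaller amounts. Of 21 PPARA targets of lipid handling 20 were tested, with 1 higher and 13 lower, a median of -0.90, and 7 lower and stable. Of 29 genes of fatty acid oxidation and ketogenesis, 14 were lower and 1 higher, with a median of -0.33 and 6 lower and stable, beside the 26.3% of all genes that were lower.

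The Cyp4a hydroxylases, which oxidise the omega end of fatty acids, were among the members that were lower, and Cyp4a14 differed most of the list. Cyp4a14 read -4.20, -2.78, -0.64 and -3.24 in C3H livers, against 3.70, 4.26, 6.51 and 5.34 in 129Ola livers (-7.67 ± 0.78, adjusted p = 7.2e-07), with 2 of the 4 C3H arrays well above background. Cyp4a10 stood at 3.27, 3.45, 4.46 and 3.16 in C3H and at 5.81, 5.76, 7.08 and 5.84 in 129Ola (-2.53 ± 0.44, adjusted p = 0.00027), and its other probes gave -4.43 and -2.57. C3H mouse 3 and 129Ola mouse 7 were the highest of their strain for both genes. Cyp4a31 was lower by 2.57. These genes are close copies of each other, so a probe may also read a neighbour.

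Acot1, which releases fatty acids from CoA in the cytosol, was at 1.20, 1.23, 1.45 and 1.40 in C3H, against 3.02, 3.52, 4.37 and 5.13 in 129Ola (-2.69 ± 0.40, adjusted p = 5.0e-05). Vnn1, a pantetheinase, read -0.92, -0.71, 0.18 and -1.07 in C3H and 2.77, 2.65, 2.76 and 1.58 in 129Ola (-3.07 ± 0.42, adjusted p = 2.2e-05). Neither gene overlapped between the strains. The peroxisomal thioesterase Acot3 was lower by 1.96, and the fatty acid translocase Cd36 was lower by 1.00 ± 0.21 (adjusted p = 0.0012). Angptl4, an inhibitor of lipoprotein lipase, differed by -1.46 (adjusted p = 0.024), but lost the threshold with the slide block (adjusted p = 0.18) and when any of 4 single mice was left out. The fatty acid binding protein Fabp1 was the member that was higher, by 0.38 (adjusted p = 0.0095), and was not stable. Pdk4, the brake on pyruvate oxidation, did not pass the test (0.77, adjusted p = 0.15), and nor did Ppara itself (0.03, adjusted p = 0.89).

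Within oxidation, Acadm, the medium-chain dehydrogenase of mitochondria, read 6.22, 6.58, 6.57 and 6.33 in C3H and 7.28, 7.17, 7.31 and 7.34 in 129Ola (-0.85 ± 0.15, adjusted p = 0.00030). Ehhadh, the peroxisomal bifunctional enzyme, was at 3.79, 4.16, 3.96 and 3.99 in C3H, against 4.67, 4.82, 5.11 and 5.20 in 129Ola (-0.97 ± 0.20, adjusted p = 0.00094). The gaps were small and the mice of a strain were close together, so neither gene overlapped. Eci1, Acadl and Hadha were lower by 0.76, 0.68 and 0.54. The entry step Cpt1a (-0.26, adjusted p = 0.27) did not pass the test. Fgf21, a secreted hormone and PPARA target, was the one member that was higher (2.74, adjusted p = 0.016), with levels of 0.34, 0.64, -0.04 and 1.53 in C3H and -2.76, -4.88, 0.72 and -1.55 in 129Ola. 129Ola mouse 7 lay among the C3H mice, and the call was lost with the slide block (adjusted p = 0.24) and without 129Ola mouse 5 or C3H mouse 5. With quantile normalization 10 PPARA targets and 10 oxidation genes were lower, with a median of -0.13 for oxidation, and with normexp background correction 10 and 8 were lower. With the slide as a random block 7 PPARA targets and 8 oxidation genes were lower, beside 1700 of all 17724 genes. Without 129Ola mice 4 and 5 the counts were 12 and 13, and without mice 7 and 9 they were 11 and 14.

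**Figure D2:**
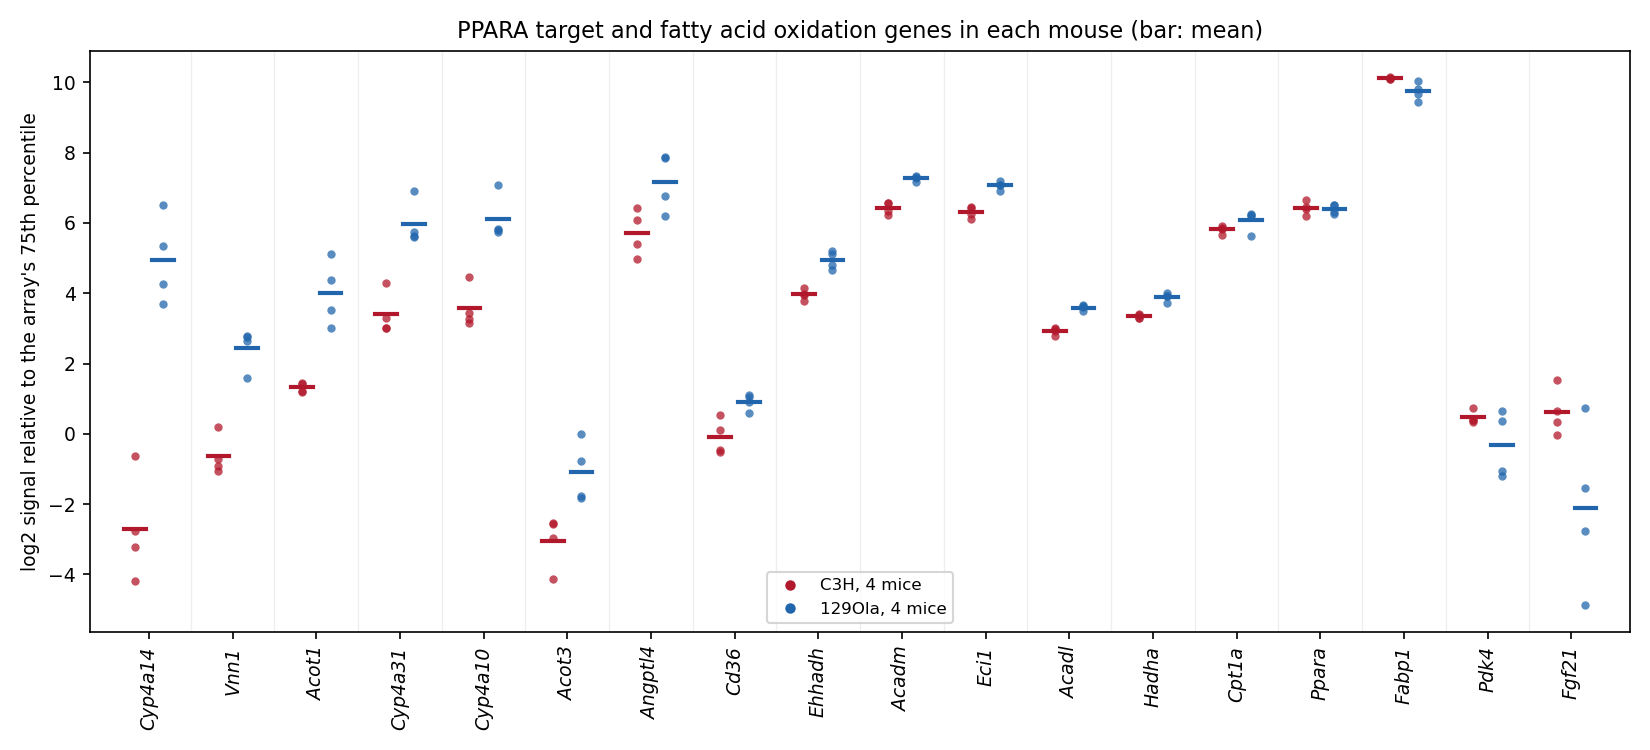
Level of the PPARA targets and fatty acid oxidation genes that are named in the text, in every mouse, as log2 signal relative to the array's 75th percentile, genes ordered by their difference. Points are mice (C3H in red, left, and 129Ola in blue, right, 4 each) and bars are strain means. Cyp4a14 at the left has the widest gap (-7.67), the bright oxidation genes in the middle differ by less than 1 log2 unit, and the 129Ola mice scatter most for Fgf21 at the right.

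The sterol export genes Abcg5 and Abcg8 were lower in C3H, where most genes of sterol synthesis were higher. Abcg5 and Abcg8 form the transporter that moves cholesterol into bile. Abcg5 read 5.52, 5.38, 5.33 and 5.18 in C3H, against 6.93, 7.28, 6.17 and 7.33 in 129Ola (-1.57 ± 0.23, adjusted p = 5.1e-05). Abcg8 stood at 0.20, 0.09, 0.02 and -0.47 in C3H and at 1.76, 1.94, 1.15 and 2.38 in 129Ola (-1.85 ± 0.31, adjusted p = 0.00016). 129Ola mouse 7 was the lowest of its strain for both and still lay above every C3H mouse. Of 24 genes of bile acid synthesis and transport tested, 1 was higher and 9 lower, beside 26.3% of all genes lower. Acox2, which shortens the bile acid side chain, was lower by 0.65 and stable. The nuclear receptor SHP (Nr0b2) and the transporter Slc51b were lower by 1.52 and 1.40 but lost the threshold with the slide block (adjusted p = 0.12 and 0.067). Cyp7a1, the rate-limiting enzyme of bile acid synthesis, did not pass the test (-0.27, adjusted p = 0.79), with 2.55, 2.43, 3.17 and 3.63 in C3H and 4.32, 5.09, 2.33 and 1.1 in 129Ola. 129Ola mice 4 and 5 lay above and mice 7 and 9 below the C3H mice.

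Among 25 lipoprotein genes 5 were higher and 7 lower, shares near the 16.0% and 26.3% of all genes. The VLDL receptor (Vldlr), which is low in healthy liver, read -2.51, -2.92, -2.84 and -2.20 in C3H livers, against 1.92, 1.60, 1.24 and 1.61 in 129Ola livers. The strains were far apart (-4.21 ± 0.22, adjusted p = 9.6e-11), with 3 of the 4 C3H arrays well above background, and the gene's other probe gave -3.30. Apom, the apolipoprotein that carries sphingosine 1-phosphate, was lower by 0.92 ± 0.09 (adjusted p = 5.2e-07). Apob, the protein core of VLDL, differed by 0.32 (adjusted p = 0.0064, and 0.089 with the slide block). Apoa4 was lower by 0.93, with an adjusted p of 0.13 under that block.

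Of 28 genes of insulin and growth hormone signalling 7 were higher, a larger share than the 16.0% of all genes. Another 8 were lower, a share near the 26.3% of all genes. Enpp1, a membrane enzyme that binds the insulin receptor, had levels of 0.08, 0.00, 0.10 and -0.31 in C3H, while no 129Ola array had it well above background. It was at least 6.76-fold higher in C3H. Serpina12, which encodes the secreted serpin vaspin, stood at 0.68, 0.43, 0.14 and 0.55 in C3H and was not well above background on any 129Ola array. It was at least 9.47-fold higher. Both are on and off differences, where the dim strain gives only a bound. A test of such a gene rests on signals below background, so no p-value is given beside a bound. Igfbp2, a secreted binding protein of insulin-like growth factors, was lower, at 4.88, 4.92, 4.97 and 4.74 in C3H, against 7.09, 6.71, 6.35 and 6.74 in 129Ola (-1.84 ± 0.31, adjusted p = 0.00017). Foxo1, the factor that insulin excludes from the nucleus, was lower by 0.78 and Igfbp3 by 1.11, both stable. Trib3, an inhibitor of Akt raised by stress and counted in the stress response list instead, was lower by 2.12 ± 0.29 (adjusted p = 2.6e-05). The insulin receptor (Insr) did not pass the test (0.16, adjusted p = 0.55).

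Some signalling genes turned on single mice. Cish, a feedback inhibitor of growth hormone signalling, read 4.38, 4.25, 4.11 and 3.90 in C3H, against 4.52, -0.26, -0.71 and -2.03 in 129Ola. 129Ola mouse 4 was above all C3H mice and the other 3 far below, and the call (3.78 ± 1.34, adjusted p = 0.032) was lost when any one of 7 mice was left out. Igf1 differed by 0.27 (adjusted p = 0.038) and lost the threshold without any of 5 single mice. Pck1, the gluconeogenic carboxykinase, differed by -0.80, and the slide block ended the call, at adjusted p = 0.25. Grb14, an inhibitor of the insulin receptor, differed by 1.30 (adjusted p = 0.13 with that block).

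Among detoxification genes that passed the test, more were lower than higher in C3H, as was so among all genes (4653 lower and 2836 higher). Of 43 xenobiotic cytochrome P450 genes tested 5 were higher and 16 lower, of 27 genes of glutathione conjugation 3 were higher and 13 lower, and of 20 glucuronosyl and sulfotransferases 0 were higher and 12 lower, beside 16.0% and 26.3% of all genes. Cyp2c23, an epoxygenase of arachidonic acid, read 2.71, 3.25, 2.92 and 3.11 in C3H, against 6.87, 6.74, 6.49 and 6.66 in 129Ola (-3.70 ± 0.18, adjusted p = 5.9e-11). Cyp2c39 stood at 0.27, 0.55, 0.32 and 0.57 in C3H and at 3.41, 2.55, 4.14 and 3.50 in 129Ola, a difference of -2.98. Cyp3a13, Cyp2c50 and Cyp2c38 were lower by 2.33, 1.69 and 1.55, and Cyp4v3, an omega-hydroxylase of another family, was higher by 0.80. The families are large and their members alike, so a probe may also read a relative.

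Gsta2, an alpha class glutathione transferase, was at -2.45, -1.91, -2.10 and -3.00 in C3H and at 3.44, 2.83, 2.86 and 3.29 in 129Ola (-5.47 ± 0.33, adjusted p = 7.7e-10), with 3 of the 4 C3H arrays well above background. Gstt2 read 1.89, 2.54, 2.15 and 2.19 in C3H, against 5.19, 4.97, 4.61 and 4.63 in 129Ola, a difference of -2.66. Gstm4, Gsta4 and Gstm1 were lower by 1.21, 0.98 and 0.91, and the glyoxalase Glo1 by 0.69. None of these overlapped. Ugt1a10 stood at -0.20, -0.43, -0.42 and -0.33 in C3H and at 3.69, 3.45, 3.51 and 3.79 in 129Ola (-3.96 ± 0.15, adjusted p = 1.8e-12). Sult1e1, which sulfates estrogens, read -3.61, -3.23, -2.45 and -3.72 in C3H, against 1.36, 2.18, 1.69 and 2.05 in 129Ola, with 1 of the 4 C3H arrays well above background. Sult1b1 was lower by 0.75, and the carboxylesterase Ces1g was higher by 2.10. With scaling on the common probes the counts were 7 higher and 11 lower for the P450 genes, 5 and 9 for glutathione conjugation and 1 and 11 for the transferases. With the slide block they were 3 and 8, 0 and 8, and 0 and 5. Of all 17724 genes 1164 were higher and 1700 lower with the slide block, and 4126 and 2549 on the common probes. In the authors' value table the list counts were 6 and 8, 3 and 7, and 1 and 9. The list medians there were -0.06, -0.03 and -0.26, against -0.015 for all its genes. With the main scaling they were -0.25, -0.32 and -0.49, against -0.10.

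MHC class II presentation was lower in C3H and class I was mostly higher. Of 14 class II genes 7 were tested, with 6 lower and 0 higher, a median of -1.80, and all 6 stable. Among all genes 26.3% were lower. H2-Aa, the alpha chain of I-A, was not well above background on any C3H array, where its signal read -4.34, -5.35, -4.95 and -5.33, against 2.74, 2.30, 2.08 and 2.42 in 129Ola livers. It was at least 48.5-fold lower in C3H. H2-Ab1, the beta chain, read 2.38, 1.39, 1.94 and 1.76 in C3H, against 5.96, 5.62, 5.14 and 5.62 in 129Ola (-3.72 ± 0.30, adjusted p = 3.3e-08), and its other probe gave -3.20. H2-Eb1 stood at 2.77, 2.08, 2.49 and 2.46 in C3H and at 5.27, 4.89, 4.49 and 4.84 in 129Ola (-2.42 ± 0.27, adjusted p = 2.9e-06). Cd74, the invariant chain, which is encoded outside the MHC, was at 3.18, 2.31, 2.60 and 2.59 in C3H, against 4.93, 4.48, 4.10 and 4.39 in 129Ola (-1.80 ± 0.27, adjusted p = 7.2e-05). The strains did not overlap for any of these. The peptide exchange genes H2-DMa and H2-DMb1 were lower by 1.52 and 1.39. In whole liver, fewer presenting cells and less RNA per cell cannot be told apart.

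H2 genes are highly polymorphic, the strains carry different H2 haplotypes, and each probe has 60 bases designed to 1 reference sequence. The effect of alleles under the probes was not tested. Of 26 class I and peptide loading genes tested 14 were higher and 2 lower, with a median of 0.33 and 9 higher and 1 lower that were stable. Among all genes 16.0% were higher and 26.3% lower. H2-D1 went against the rest, at 2.34, 2.02, 1.91 and 2.06 in C3H, against 6.11, 5.91, 6.09 and 6.04 in 129Ola (-3.95 ± 0.15, adjusted p = 1.7e-12), from 1 probe. H2-K1, the other classical gene, gave differences of -0.33, 0.16 and 0.06 from its 3 probes, and the brightest of them changed sign in the authors' value table. Nlrc5, the transactivator of class I genes, read 1.45, 1.22, 1.53 and 0.68 in C3H and 0.13, -0.28, -1.96 and -0.48 in 129Ola (1.87 ± 0.32, adjusted p = 0.00024). H2-Q1, H2-T24 and H2-Q8 were higher by 2.46, 1.92 and 1.32, and the immunoproteasome subunit Psmb9 by 1.18. With the slide as a random block 10 class I genes were higher, beside 1164 of all 17724 genes. With the animal number as a block 4 were higher, beside 700 of all genes, with the limit of that block named above.

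**Figure D3:**
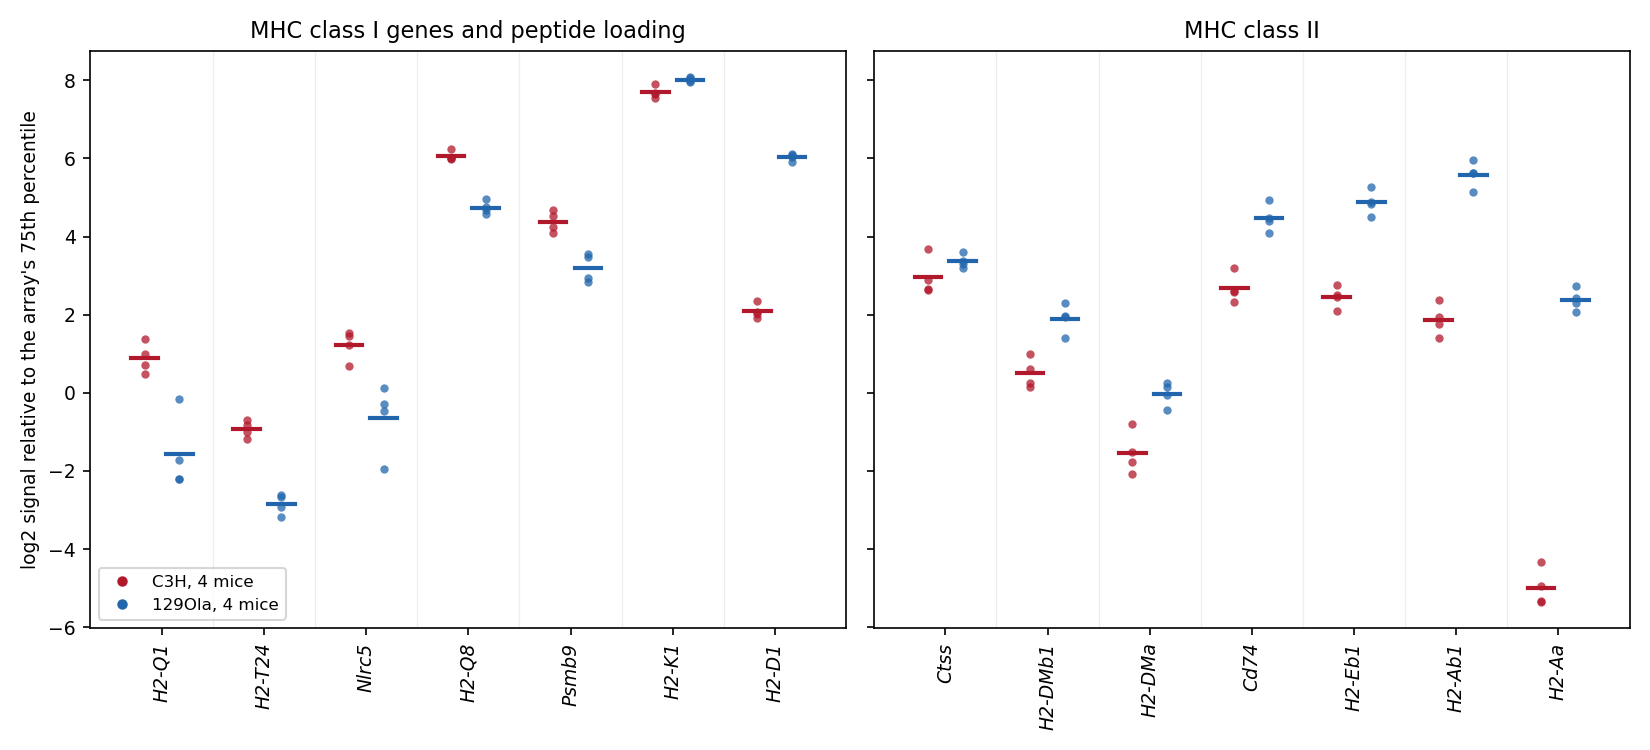
Level of the MHC class I and peptide loading genes (left panel) and MHC class II presentation genes (right panel) that are named in the text, in every mouse, as log2 signal relative to the array's 75th percentile. Points are mice (C3H in red, left, and 129Ola in blue, right, 4 each) and bars are strain means. H2-D1 at the right of the first panel is lower in C3H (-3.95), and in the second panel Ctss is the one gene that did not pass the test.

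Among interferon-linked genes that passed the test nearly all were higher in C3H. Of 39 interferon-stimulated genes 18 were higher and 2 lower (median 0.37, with 6 higher and 1 lower stable), and of 17 immunity-related GTPases and guanylate-binding proteins 9 were higher and 0 lower (median 0.57, 3 stable), beside 16.0% of all genes higher. Oasl1, a relative of the antiviral oligoadenylate synthetases, read 2.91, 2.90, 2.79 and 2.51 in C3H, against 0.64, 0.19, 0.37 and 0.16 in 129Ola (2.44 ± 0.17, adjusted p = 5.7e-09). Ifi27 was higher by 1.16, the ISG15 protease Usp18 by 1.11, Gbp9 by 1.46 and Ifi47 by 0.86. Gbp11 stood at 4.30, 4.36, 4.49 and 4.64 in C3H and at 3.97, -0.36, -0.05 and -1.39 in 129Ola, where mouse 4 alone was near the C3H level (3.90 ± 0.78, adjusted p = 0.00084, and 0.051 with the slide block). Sp110 was lower by 0.82 at its brightest probe, while its other probes gave -0.10 and 0.51. Xaf1, a proapoptotic interferon-stimulated gene, had 2 probes of opposite sign, 1.93 and -7.17, and is given no direction, though the first, its brightest, enters the count as higher. With the slide block 8 interferon-stimulated genes were higher and 1 lower, and 3 of the GTPases and guanylate-binding proteins were higher. Of all 17724 genes 1164 were higher and 1700 lower under that block.

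Innate immune proteins of the liver differed one by one. Mbl2, a mannose-binding lectin that starts complement, was at 8.60, 8.61, 8.62 and 8.64 in C3H and at 5.33, 5.27, 6.37 and 5.58 in 129Ola, a 7.90-fold difference (2.98 ± 0.16, adjusted p = 2.3e-10). C4b and coagulation factor F12 were lower by 1.58 and 1.25. Across the 34 complement and coagulation genes 4 were higher and 9 lower, the last a share near the 26.3% of all genes. Tlr12, a receptor for profilin, was higher by 2.69 ± 0.25 (adjusted p = 3.1e-07), and the chemokine receptor Cx3cr1 by 3.06, with 2 of the 4 129Ola arrays well above background. Ccl27a, a chemokine best known from skin, read -1.45, -1.78, -2.49 and -2.08 in C3H, against 3.19, 3.11, 3.30 and 3.54 in 129Ola (-5.24 ± 0.17, adjusted p = 1.7e-13), and its other probes gave -5.11 and -4.07. Of 25 acute phase genes 4 were higher and 3 lower, beside 16.0% of all genes higher and 26.3% lower. Saa1, a serum amyloid, did not pass the test (-0.39, adjusted p = 0.60), with 10.06, 7.43, 8.53 and 7.38 in C3H and 8.78, 9.15, 8.14 and 8.89 in 129Ola. C3H mouse 1 was the highest of all 8.

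Markers of other cells also differed, and their part in the results was not tested. Among 21 markers of Kupffer cells and macrophages, 12 were lower in C3H and 2 higher, with a median of -0.61, and 3 lower ones were stable. Folr2, a folate receptor of resident macrophages, read -1.32, -2.14, -1.94 and -2.02 in C3H, against 2.80, 2.58, 2.17 and 2.23 in 129Ola (-4.30 ± 0.17, adjusted p = 2.0e-12). Adgre1, which encodes F4/80, was at 1.32, 0.44, 0.69 and 0.46 in C3H and at 2.21, 2.27, 1.86 and 2.31 in 129Ola, a difference of -1.44. Clec4f, a Kupffer cell marker, differed by -0.63 (adjusted p = 0.0022, and 0.074 with the slide block), the complement subunit C1qb by -1.11, and Itgam, a monocyte integrin, by 1.00. C3H mouse 1 was the highest C3H mouse for Folr2, Adgre1, Clec4f, Cd74 and H2-Ab1, and without it 14 macrophage markers and 7 class II genes were lower. With the slide block 3 macrophage markers and 6 class II genes were lower, beside 1700 of all 17724 genes. Of 8 cholangiocyte markers 4 were lower, among them Krt23 by 3.79 and Sox9 by 1.94, the last with 1 of the 4 C3H arrays well above background, while Krt19 did not pass the test (-0.37, adjusted p = 0.26). Sinusoidal endothelial markers numbered 2 higher and 7 lower of 18, stellate cell and fibrosis markers 5 and 8 of 23, and hepatocyte markers 3 and 1 of 15. All marker counts here stand beside 16.0% of all genes higher and 26.3% lower.

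Erythroid markers were higher in C3H, 7 of 8 tested with a median of 1.33, beside 16.0% of all genes higher. Hba-a1, an alpha globin gene, read 8.42, 8.55, 8.37 and 9.04 in C3H, against 7.35, 7.08, 6.77 and 6.96 in 129Ola (1.56, adjusted p = 0.050 with the slide block). The beta globin gene Hbb-bt differed by 1.51 (adjusted p = 0.051 with that block). Under the block 1 erythroid marker passed, Hba-a2, with a difference of 1.21. Blood in the tissue and its part in other results were not tested.

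Clock genes set 129Ola mice 4 and 5 apart from mice 7 and 9. The clock output gene Dbp stood at 2.29, 3.10, 2.53 and 2.32 in C3H and at 7.87, 7.73, 1.66 and 2.93 in 129Ola (adjusted p = 0.11). Arntl, which peaks at the opposite time of day to Dbp, read 2.00, 1.91, 1.98 and 2.04 in C3H, against -0.33, -1.17, 2.64 and 2.55 in 129Ola. 129Ola mice 7 and 9 lay near the C3H mice for both genes and mice 4 and 5 far from them. Per1 was lower in C3H against all 4 of the 129Ola mice, at 0.18, 0.54, 0.31 and 0.13 in C3H and 2.53, 4.14, 1.95 and 3.03 in 129Ola (-2.62 ± 0.45, adjusted p = 0.00023). Usp2 read -2.36, -1.84, -1.84 and -2.85 in C3H and 2.02, 2.64, -1.92 and -1.06 in 129Ola, and Nr1d1, which encodes REV-ERB alpha, differed by -1.77 (adjusted p = 0.039, lost when any of 5 single mice was left out). Of 17 clock and output genes tested 0 were higher and 7 lower, with 1 stable, beside 26.3% of all genes lower. Without 129Ola mice 4 and 5 the count was 0 higher and 2 lower, and without mice 7 and 9 it was 2 higher and 8 lower. The time of day at which livers were taken is not given in the sources used here, and its part in the results was not tested.

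Oxidative phosphorylation shows how small shifts depend on scaling. Of 50 subunit genes 24 were lower and 0 higher with the main scaling, and 2 were stable. Scaling on the common probes gave 6 higher and 8 lower, quantile normalization gave 7 and 5, and the normexp background correction gave 4 and 4, so the list has no settled direction.

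The remaining lists are given by their counts, beside 16.0% of all genes higher and 26.3% lower. Of 28 genes of the unfolded protein and integrated stress response 3 were higher and 6 lower, among them Dnajc3, a co-chaperone, by 1.29, and of 18 heat shock genes 3 were higher and 6 lower. Gluconeogenesis, glycolysis and glycogen counted 2 higher and 7 lower of 29, hepatokines 5 and 8 of 20, carboxylesterases 3 and 6 of 15, and Nrf2 targets with antioxidant enzymes 1 and 9 of 28. Urea cycle and amino acid metabolism counted 2 and 13 of 39, pericentral genes 1 and 4 of 20, and periportal genes 0 and 8 of 21. Major urinary proteins, which are close copies of each other, counted 5 and 0 of 11, male-biased liver genes 4 and 4 of 22, and female-biased ones 2 and 7 of 13. Pattern recognition counted 5 and 7 of 23, chemokines and their receptors 4 and 5 of 19, Ifi200 genes 0 and 0 of 6, and proliferation 3 and 1 of 17. Lymphocyte markers counted 3 and 1 of 8, neutrophil markers 2 and 0 of 7, adipocyte markers 4 and 1 of 7, and pancreas markers 3 and 1 of 6.

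**Figure D4:**
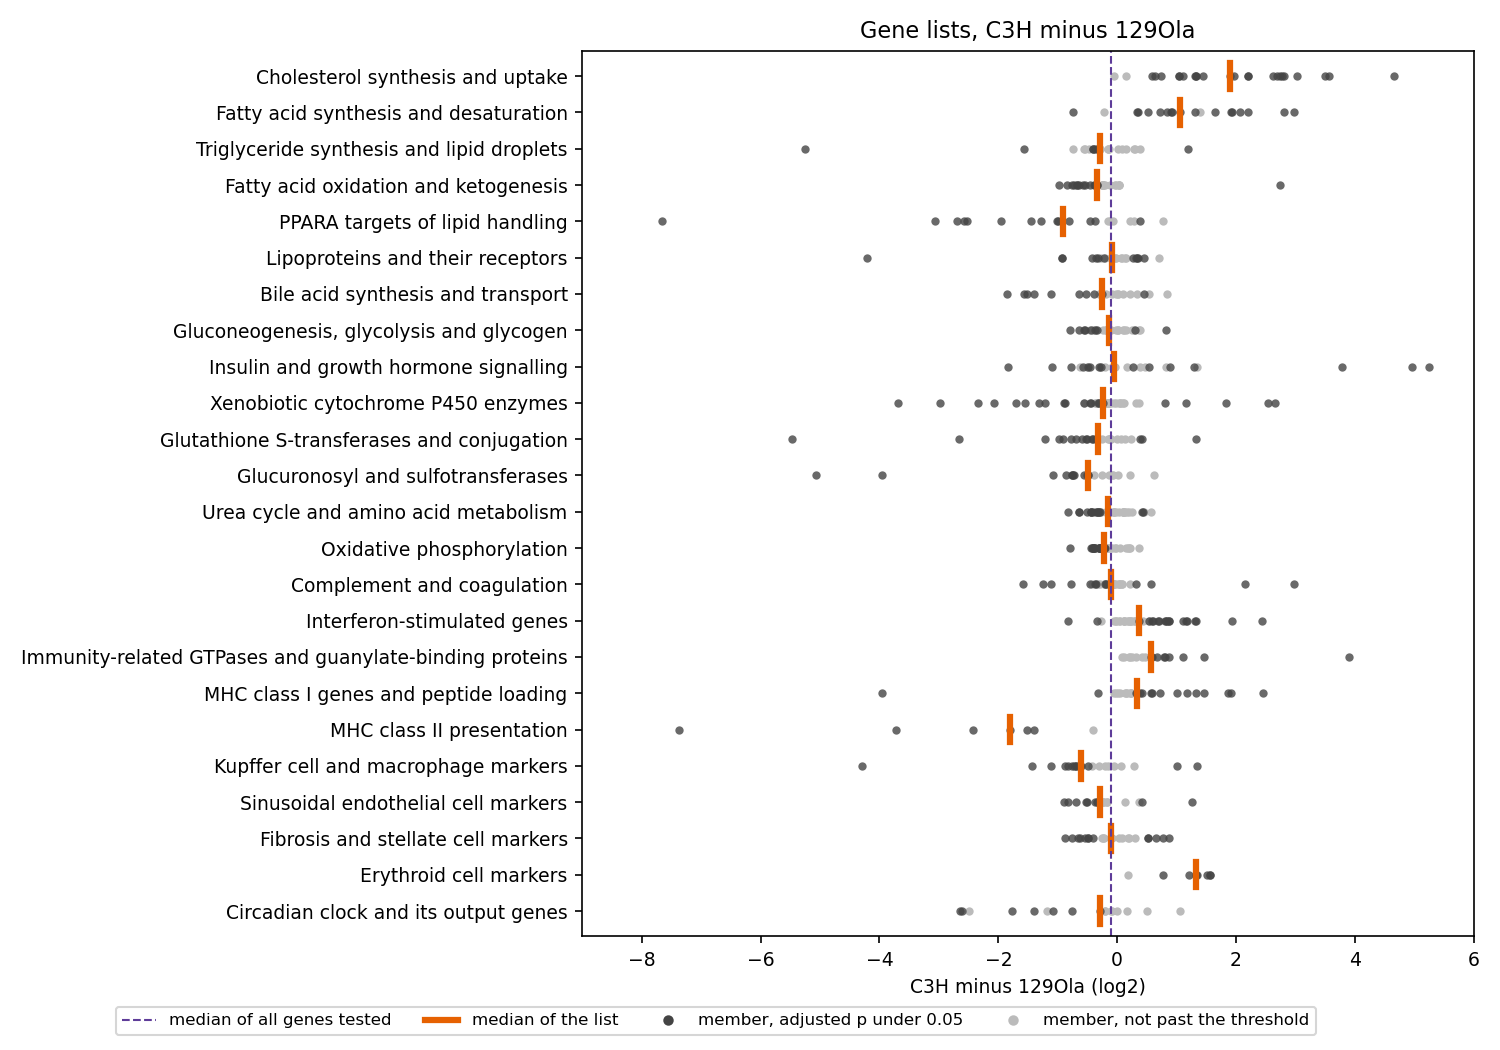
Difference C3H minus 129Ola (log2, horizontal axis) of every tested member of 24 gene lists (vertical axis), including members with only a bound in one strain at their measured value. Dark points passed an adjusted p of 0.05, grey points did not, orange bars are list medians, and the dashed line is the median of all genes (-0.10). Cholesterol synthesis (median 1.90) lies farthest to the right and MHC class II (median -1.80) farthest to the left.

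The largest differences among genes measured on all 8 arrays were of single genes from many functions, with probe positions given in mm9. Tff3 (chr17:31262279-31262338), a secreted trefoil peptide of mucous epithelia, stood at 6.64, 5.51, 6.22 and 6.81 in C3H livers, against -1.52, -0.93, -1.85 and 0.42 in 129Ola livers, a 154-fold difference (7.27 ± 0.49, adjusted p = 4.0e-09). Tmem25 (chr9:44601943-44602002) was higher by 4.66 ± 0.20 and Sugct (chr13:16949698-16949757), a CoA transferase of glutarate, by 4.49 ± 0.15. Fam25c (chr14:35165215-35166894) read 6.40, 6.55, 6.64 and 6.57 in C3H and 2.04, 2.45, 3.03 and 3.61 in 129Ola, a difference of 3.76. Every C3H mouse exceeded every 129Ola mouse for each of these. Adrb3, the beta-3 adrenergic receptor known from fat, was higher by 3.58, and its other probe gave 4.23. D630033O11Rik was higher by 3.70 and Dntt, the terminal transferase of lymphocyte precursors, by 3.56.

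On the lower side, the unnamed probe A_55_P2097820 (chr7:117445651-117445710) differed most, by -6.60 ± 0.13. Pop4, a subunit of ribonuclease P, read -0.43, -0.56, -1.01 and -0.77 in C3H, against 3.22, 3.20, 3.05 and 3.13 in 129Ola (-3.84 ± 0.12, adjusted p = 9.7e-14). Ren2 was lower by 3.47, with 129Ola mice spread over 0.50, 2.40, 0.41 and 3.51. This gene is a tandem copy of Ren1 that some strains lack.

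Some genes were well above background on all 4 arrays of one strain and, with none of their probes, on any array of the other. There were 519 such genes detected in C3H (2.93% of all tested), of which 75 were stable, and 61 detected in 129Ola (0.34%), of which 54 were stable. Fewer probes were well above background on the 129Ola arrays (40.0 to 43.4%) than on the C3H arrays (43.3 to 46.9%). The part of this in the counts was not tested. Dct (chr14:118412029-118412088), a melanin enzyme, read 4.37, 4.28, 4.95 and 3.44 in C3H and was at least 132.7-fold higher than in 129Ola. Its other probe gave a measured difference of 7.72. Cacng2 (chr15:77825290-77825349), an auxiliary subunit of glutamate receptors, was at least 86.7-fold higher, and Gm3219 (chr14:35158425-35158484), a pseudogene transcript close to the Fam25c probe, at least 43.0-fold. F830016B08Rik, Apol10a and the kallikrein Klk1b22 were at least 21.8-fold, 21.1-fold and 20.7-fold higher, the DNA polymerase Poln at least 13.1-fold and Tmc5 at least 12.3-fold. In the other direction, Myom2 (chr8:15133322-15133381), a protein of the muscle M-band, was at least 182.9-fold lower in C3H, with levels of 3.74, 4.61, 4.45 and 4.39 in 129Ola. AW011956 was at least 50.2-fold lower, Gm5067 at least 43.4-fold and Ctse (chr1:133571990-133572049), the aspartic protease cathepsin E, at least 41.1-fold. LOC630751, a GTPase-like transcript, was at least 23.7-fold lower, 5033406O09Rik at least 20.1-fold and Gm10804 at least 17.8-fold, or at least 9.89-fold without 129Ola mouse 4. Of 7 skeletal muscle markers tested, which do not include Myom2, 1 was higher in C3H and 0 lower, beside 16.0% of all genes higher.

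The other lean pair gave a comparison that shares no mouse with this one. DBA and B6 differed in 1441 genes higher (8.23%) and 1464 lower (8.37%) of the 17500 that could be compared. To be counted, a gene had to be detected in C3H or 129Ola, and its probe was the brightest in those strains. Genes detected only in DBA or B6 are thus left out. Arrays of DBA and of B6 lay on several slides and shared some scan days, while C3H and 129Ola shared none. These shares and those of C3H against 129Ola therefore do not tell which pair differs more. The difference of C3H and 129Ola itself differed from that of DBA and B6 in 5334 genes (30.5%), 2060 above it (11.8%) and 3274 below it (18.7%). That count was 2801 with the slide as a random block and 1463 with the animal number as a block, which has the limit named above. Of 993 stable genes with a 2-fold difference that were tested in both pairs, 499 had the same sign in DBA minus B6. Of these 993 genes, 215 were called with the same sign in both pairs, 222 were called with the opposite sign, and for 845 the 2 differences differed.

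Sterol synthesis was higher in C3H against 129Ola without a like difference in the other pair. For 20 of the 25 genes C3H minus 129Ola lay above DBA minus B6 and for 0 below. In DBA against B6 the list's median was 0.25, with 2 members higher and 2 lower. Sqle differed by 4.67 in C3H against 129Ola and by 0.01 in DBA against B6, and Hmgcs1 by 2.70 and -0.75. Mean Sqle levels were 5.72 in C3H, 1.05 in 129Ola, 3.99 in DBA, 3.99 in B6 and 4.84 in NZO. For Mvd they were 3.25, -0.25, 1.98, 1.57 and 2.74. For both genes C3H was the highest strain and 129Ola lay below every other strain. Arrays of DBA, B6 and NZO were extracted with another software version (11.0.1.1). In fatty acid synthesis 9 of 19 members lay above the other pair and 0 below, with Scd1 at 2.81 and -2.53 in the 2 pairs. PPARA targets went the other way, with 11 of 20 below the other pair and 1 above. In DBA against B6 6 of them were higher and 0 lower, among them Cyp4a14 by 3.18 and Cyp4a10 by 1.94. The glucuronosyl and sulfotransferases were 12 lower of 20 in C3H and 7 higher and 0 lower in DBA, and 9 of them lay below the other pair.

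Other genes had the same direction in both pairs. Cyp3a13 was lower by 2.33 in C3H against 129Ola and by 2.34 in DBA against B6, and the difference of the 2 was 0.01 (adjusted p = 0.98). Folr2 was lower by 4.30 and by 4.93, with a difference of 0.63 between the pairs (adjusted p = 0.050), and Abcg5 was lower by 1.57 and 1.31, with a difference of -0.26 (adjusted p = 0.57). H2-Aa was at least 48.5-fold lower in C3H and lower by 3.98 on the log2 scale in DBA, with 3 of the 4 DBA arrays well above background. Kupffer cell and macrophage markers numbered 12 lower of 21 in C3H and 11 lower in DBA, each against its lean resistant strain. Tmc5 and Poln, which were not above background in 129Ola, were also higher in DBA against B6, where 1 of the 4 B6 arrays had each well above background. In the opposite direction, Tff3 and Mcm6, a helicase subunit of DNA replication, were higher in C3H against 129Ola and differed by -2.17 and -1.77 in DBA against B6. Serpina12 was at least 13.0-fold lower in DBA, where no array had it well above background, and Gm3219 was lower in DBA with 1 of the 4 DBA arrays well above background.

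**Figure D5:**
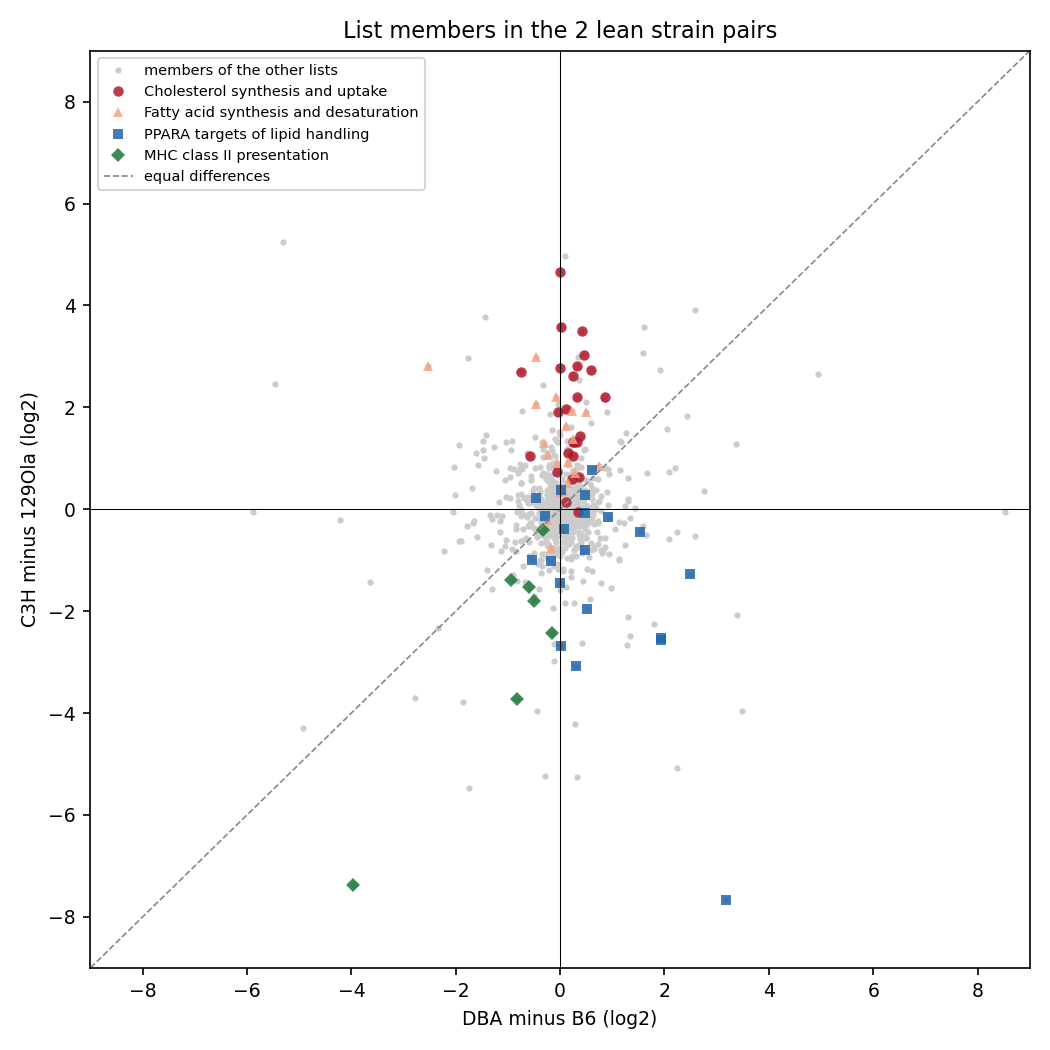
Difference C3H minus 129Ola (log2, vertical axis) against DBA minus B6 (log2, horizontal axis) of the members of the gene lists, 1 point per gene. Colours and shapes mark 4 lists, grey dots are members of the other lists, and the dashed line marks equal differences. Most sterol genes stand above 0 on the vertical axis and near 0 on the horizontal one (medians 1.90 and 0.25), while Cyp4a14 lies at the lower right (-7.67 and 3.18).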

How the data were processed

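Cy3-labelled liver RNA of 20 mice was hybridised to Agilent mouse arrays, 1 array per mouse, and the 8 arrays of C3H and 129Ola are described here. The deposited intensity of a spot on these 8 arrays is, per the file headers, the background-subtracted and detrended signal of Agilent Feature Extraction 11.5.1.1, with no normalization between arrays. The submitters' processing notes name version 9.1. Flag columns of the deposited files mark control, outlier, saturated and well-measured spots. The authors' value table holds intensity values of 37892 probes with identical sorted values in every column (median 19.9), which served as an alternative. How it was background-corrected is not given in the sources used here. It runs in the same direction as the scanner signals, and each column matched its own array best (lowest rank correlation 0.955).

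Control spots (3671 of 62976 per array) and outlier spots were left out, and no spot was saturated. Spots of a probe were averaged. From log2 of the processed signal the 75th percentile of each array over 55642 probes was subtracted. Genes were tested where every array of C3H, or every array of 129Ola, held 1 probe well above background, and a gene's brightest probe over the 8 arrays stood for it. Names came from RefSeq accessions (28011 of 29780 matched, GRCm38.p6), else from the files, and coordinates are the files' own (mm9). Promoter sequences are RefSeq's (GRCm38.p6).

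A mean per strain was fitted over all 20 arrays with limma 3.58.1 (R 4.3.3, lmFit and eBayes), with two-sided p-values adjusted by the Benjamini-Hochberg method over all 17724 genes and a threshold of 0.05. C3H minus 129Ola minus the difference DBA minus B6 was tested in the same fit over 17500 genes. The labels give an animal number per array, read as 1 mouse each, so p-values measure the spread between these mice. Where no array of a strain measured a gene well above background, the fold is a bound. It sets the mean of the bright strain against the higher of the array's lowest well-measured signal and the probe's own. Such genes passed the filter through 1 strain only. Their tests used the measured signals and do not bear on the bound. On simulated data 72% of 200 genes with a log2 change of 1 were recovered among 17724, with 8 false calls. The simulated arrays were independent, with no slide or day effect, while the real arrays had a correlation of 0.40 within a slide. The simulation thus gives no rate of false calls for a comparison in which strain and scan day coincide.

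Genes named are, among those past the threshold with 1 sign under every scaling, the 12 highest and 12 lowest measured on all 8 arrays, the 8 largest bounds each way, the 5 highest and 5 lowest differences between the pairs, and in each of 46 gene lists up to 4 members with the smallest adjusted p and members that a role needs. Genes and lists were chosen with earlier results of these data known. Alternatives were the scaling, background correction (normexp, offset 50), value table, filter, probe choice, arrays fitted, slide and animal number as blocks, and each mouse left out. Leaving out 129Ola mice in pairs, the rule for a stable gene and the genes named for probes that disagree were chosen after seeing the data. Depth here is signal over background, and the number of arrays limits precision. Some members of the lists are counted but not reported by name here.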

Additional observations from a re-analysis of the deposited data

Results flagged for a closer look

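In 15 of 340 groups of 4 mice that were looked at, 1 mouse stood apart from the other 3 by Dixon's test, where chance gives about 1 in 20. C3H mouse 1 stood apart for H2-Q8 (6.25), C1qb (2.71), Clec4f (5.06) and Krt23 (-1.83), C3H mouse 2 for Cacng2 (2.95), and C3H mouse 3 for Pdk4 (0.72), Gm5067 (-4.99) and LOC630751 (-5.01), the last 2 below background. 129Ola mouse 4 stood apart for Fasn (-0.094), mouse 7 for Cpt1a (5.63), Cyp4a31 (6.92), Cyp4a10 (7.08) and Igf1 (7.50), and mouse 9 for Sc5d (6.03) and Vnn1 (1.58).

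The difference C3H minus 129Ola differed from DBA minus B6 in 5334 genes by limma's test of the difference of the 2. The genes named with the largest values or in the lists had the following differences between the pairs, on the log2 scale. Above the other pair were Gm3219 (13.24), Serpina12 (10.56), Tff3 (9.43), Apol10a (9.16), H2-Q1 (7.91), Scd1 (5.34), Mcm6 (4.74), Sqle (4.66) and Hmgcs1 (3.44). Below it were Ctse (-15.30), Gm5067 (-14.69), Cyp4a14 (-10.84), Serpina3i (-9.29), Rassf4 (-8.88), Ugt1a10 (-7.45), Sult1e1 (-7.32), Cyp4a10 (-4.47), Gstt2 (-3.94), Glo1 (-1.94) and Acadm (-1.27). For genes below background in a strain these are measured values and not bounds.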

How the results depend on the processing

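Of 170 genes named, 154 passed the threshold, and 106 of these passed under every one of up to 20 alternatives. The slide as a random block ended 26 calls, the animal number as a block 41, leaving out 129Ola mice 4 and 5 together 11, and leaving out mice 7 and 9 together 6, and 9 genes that did not pass did so under some alternative. Against 7489 genes called (2836 higher, 4653 lower) and 2201 at 2-fold (1540 and 661), the slide block gave 2864 (1164 and 1700), 1368 at 2-fold with 846 higher, and 2801 for the difference between the pairs. Normexp gave 4378 (1752 and 2626) and 526 at 2-fold (287 and 239). Scaling on common probes gave 4126 higher and 2549 lower. The authors' value table gave 2608 lower, and 1408 at 2-fold with 922 higher. Genes measured on all 8 arrays gave 1645 higher, and 1033 at 2-fold with 535 higher. Without 129Ola mice 4 and 5 there were 4854 (1855 and 2999). Leaving out 1 mouse gave 6075 to 7154 genes (2293 to 2787 higher, 3782 to 4367 lower), 1929 to 2231 at 2-fold (1311 to 1566 and 618 to 707), and 4446 to 6497 for the difference between the pairs. No paired analysis was possible because the numbers name animals of different strains and C3H and 129Ola share only the number 5. A replicate block on those numbers left 1811 genes (700 and 1111), 1183 at 2-fold with 594 higher, and 1463 for the difference between the pairs. It left 5 residual degrees of freedom in place of 15, so the calls it ended are not thereby shown to be fragile. Signs turned for H2-K1 in the value table (0.095), for Apob (-0.097) and Hsd17b13 (0.082) with the mean of their probes and for Xaf1 in the value table (-1.16) and with the mean of its probes (-2.62). The cause was not tested, apart from probes that disagree. Signal over background limits dim genes: 1006 of 1540 genes that were 2-fold higher were not above background on all 8 arrays.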

Other observations

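Probes of 1 gene disagreed in direction more often than Hsd17b13 and Xaf1 alone. Of 4381 tested genes with several probes, 485 had a probe at least 2-fold higher in C3H and 275 a probe at least 2-fold lower, and 22 had both. Hsd17b13 spanned 5.42 and -5.25 and Xaf1 1.93 and -7.17. Adamts13, the protease that cleaves von Willebrand factor, spanned 1.53 and -4.80, Bpnt1, a nucleotidase of sulfate metabolism, 3.53 and -2.56, Scn2a, a sodium channel subunit, 1.39 and -3.61, and the chemokine Ccl25 1.76 and -2.69. Among the 594 stable genes with several probes, all probes had 1 sign in 487.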
